A study of Mus musculus with 4 samples.

Results

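The genes described here drive or brake the passage of a cell from G1 into S phase: the D-type cyclins Ccnd1, Ccnd2 and Ccnd3, their kinases Cdk4 and Cdk6, the inhibitors Cdkn2a, Cdkn2b, Cdkn2c and Cdkn1b, and the retinoblastoma gene Rb1. The 10 genes were taken by symbol, out of 24063 symbols in the deposited tables. Where a symbol had several transcript rows, the row with the highest mean count over the tumours stood for the gene, and the separate rows of Cdkn2a are described as well. All 10 had a row, and 8 reached the mean of 1 CPM (a count per 1000000 counts of the scaled library) above which a gene was taken as expressed. Cdkn2a and Cdkn2b lay below that mean.

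The samples were 4 mouse tumours, numbered 1, 5, 9 and 10, all from a model of hepatocellular carcinoma in C57BL/6 mice (strain label; C57BL6/J in the titles) with overexpressed MYC and PMEPA1 and no treatment. The genes were introduced by hydrodynamic tail vein delivery, a fast, large-volume injection that takes DNA mainly into hepatocytes. All tumours form 1 group without a control or any tumour lacking either gene, so only the spread among tumours could be measured. What the members do relative to normal liver was not analysed here. The labels give 8 to 10 passages, a cell culture term, for tissue labelled tumour, and give neither the number of animals behind the tumours nor the age, the promoter that drives the genes nor the species of their sequences. The p-values below thus measure the spread between these samples, which may be technical.

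D-type cyclins are made in response to growth signals and bind CDK4 or CDK6. The active kinases phosphorylate RB, which then releases E2F transcription factors that switch on the genes of DNA replication. The INK4 proteins p16INK4a, from Cdkn2a, p15INK4b, from Cdkn2b, and p18INK4c, from Cdkn2c, bind the kinases and block them, while p27KIP1, from Cdkn1b, mainly restrains the cyclin E kinase CDK2. A second Cdkn2a transcript, with a first exon of its own, encodes p19ARF, which stabilises p53 by holding off MDM2. In the liver cyclin D1 is known for its rise when hepatocytes re-enter the cycle after tissue loss, and both Cdkn2a products are known as brakes on oncogene-driven growth.

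The 250 bases before 5 transcript starts are shown, since MYC binds with its partner MAX to the E-box word CACGTG, and since Cdkn2a and Cdkn2c each have a pair of starts behind their separate rows. The stretches run 5′ to 3′, from RefSeq on GRCm38.p6, with every E-box in capitals. The starts are those of RefSeq, and GENCODE begins some transcripts further upstream. Its first exon of the longer Cdkn2c transcript, chr4:109665610-109667189, holds all of the stretch printed for that row. Its ARF exon, chr4:89294334-89294653, overlaps the ARF stretch in part.
Cdk4: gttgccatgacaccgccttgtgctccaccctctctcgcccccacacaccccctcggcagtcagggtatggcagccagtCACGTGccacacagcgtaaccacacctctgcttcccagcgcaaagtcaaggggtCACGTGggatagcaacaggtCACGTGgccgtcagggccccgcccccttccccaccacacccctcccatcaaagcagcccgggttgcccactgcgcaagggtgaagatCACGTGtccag
Cdkn2a, ARF start: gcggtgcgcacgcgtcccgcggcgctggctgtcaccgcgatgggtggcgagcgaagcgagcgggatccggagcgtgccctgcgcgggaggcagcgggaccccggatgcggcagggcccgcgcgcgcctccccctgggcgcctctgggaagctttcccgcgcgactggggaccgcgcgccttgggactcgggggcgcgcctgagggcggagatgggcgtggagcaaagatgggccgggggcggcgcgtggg
Cdkn2a, INK4a start: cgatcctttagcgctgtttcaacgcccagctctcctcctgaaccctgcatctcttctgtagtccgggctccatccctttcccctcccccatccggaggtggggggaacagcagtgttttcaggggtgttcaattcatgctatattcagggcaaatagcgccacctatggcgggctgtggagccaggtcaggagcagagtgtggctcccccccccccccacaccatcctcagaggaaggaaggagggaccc
Cdkn2c, start of the longer row: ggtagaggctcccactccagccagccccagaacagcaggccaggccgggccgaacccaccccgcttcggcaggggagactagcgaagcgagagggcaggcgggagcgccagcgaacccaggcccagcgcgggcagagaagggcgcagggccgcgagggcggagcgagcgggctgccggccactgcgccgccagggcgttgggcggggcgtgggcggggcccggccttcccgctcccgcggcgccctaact
Cdkn2c, start of the shorter row: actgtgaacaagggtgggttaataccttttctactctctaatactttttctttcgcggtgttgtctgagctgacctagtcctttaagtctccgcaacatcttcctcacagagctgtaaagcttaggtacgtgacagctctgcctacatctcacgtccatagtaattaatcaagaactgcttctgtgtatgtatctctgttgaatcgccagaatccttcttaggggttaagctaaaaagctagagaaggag
They lie at chr10:127063285-127063534 on the plus strand for Cdk4, and on the minus strand at chr4:89294620-89294869 (ARF start), chr4:89282193-89282442 (INK4a start), chr4:109666757-109667006 (longer Cdkn2c row) and chr4:109665373-109665622 (shorter Cdkn2c row).

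The Cdk4 stretch holds 4 E-boxes, whose first bases lie 172, 118, 98 and 11 bases before the start. The E-box reads the same on both strands. RefSeq promoters, counted as 300 bases that reach 50 bases past the start, were found for 7 of the 10 members in 10 windows. Among the 32851 such windows of the whole table, 7.15% held at least 1 E-box and 0.0244% (8 windows) held at least 4. Of the other member windows, that of Cdk6 (chr5:3343643-3343942, plus strand) held 1 E-box, with its first base at position -220 from the start, and that of the shorter Cdkn2c row held 1 at 34 bases after the start, past the printed stretch. The windows of Cdkn1b, Cdkn2b, both Cdkn2a starts, both Ccnd3 starts and the longer Cdkn2c row held none. No member window held either of the E2F words TTTGGCGC and TTTCGCGC on either strand, which 0.813% of all windows held. These are matches of letters within the windows. Nothing about binding was measured.

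The libraries were close in depth, at 41547938 to 51939623 counts over genes, and a level of 3 counts corresponded to 0.0524 to 0.0892 CPM. The factors of TMM scaling, which levels the bulk of genes between libraries and entered the CPM values, were 1.031 to 1.102 in tumours 1, 5 and 9. Tumour 10 stood apart. Its factor was 0.8018, 22.1% of the 13129 expressed genes had an unadjusted p under 0.05 there in the test of 1 tumour against the others, and longer transcripts were lower there relative to the other tumours (Spearman rho across genes -0.27, against 0.06 to 0.23 elsewhere). The mouse Myc row stood at 4.86, 6.84, 8.58 and 7.40 CPM and the mouse Pmepa1 row at 2.43, 7.29, 4.19 and 0.922 CPM in tumours 1, 5, 9 and 10. These rows cannot check the overexpression, since the species of the delivered sequences is not given.

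The tissue label was checked against marker genes. Hepatocyte markers were high in every library: 10 of 10 were expressed, with summed levels of 15000, 16550, 20410 and 31770 CPM. Blood and stromal markers were not even between tumours. All 10 neutrophil markers were highest in tumour 9, with a summed level of 558.1 CPM against 12.3 to 26.2 CPM elsewhere. Erythroid markers summed to 532.5 to 993.5 CPM. Of the 10, 9 were highest in tumour 9 and 1 in tumour 10, which had the highest sum. Macrophage and Kupffer cell markers summed to 928.5 CPM in tumour 9 and 205.4 to 383.4 CPM elsewhere, and endothelial markers to 107.2 to 158.9 CPM. Of the T and NK cell markers, 1 of 10 was expressed, and the sum was 2.34 to 6.74 CPM. B cell markers summed to 1.89 to 5.14 CPM. In bulk tissue, fewer cells of a type and less RNA per cell cannot be told apart, which holds for every level below.

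Ccnd1 and Ccnd2 were the members that differed most between tumours, and they did so in different ways. Ccnd1, the D-type cyclin of most epithelial cells (NM_007631, chr7:144929931-144939925, minus strand, GRCm38), had 854, 3083, 215 and 3690 counts in tumours 1, 5, 9 and 10, which gave 14.9, 72.0, 4.002 and 109.7 CPM. Tumour 10 was highest and tumour 9 lowest, 27.4-fold apart, around a mean of 50.2 ± 49.7 CPM (SD, n = 4). Ccnd2, a D-type cyclin best known in blood, gonad and brain (NM_009829, chr6:127125162-127152193, minus strand), had 7886, 7428, 314 and 153 counts, or 138, 173, 5.84 and 4.55 CPM. It was high in tumours 1 and 5 and low in tumours 9 and 10, 38.1-fold between the extremes, with no tumour in between (mean 80.4 ± 88.1 CPM, SD, n = 4). Ccnd3, the most broadly expressed of the family (NM_001081636, chr17:47505051-47599691, plus strand), had 3554, 3199, 7326 and 4316 counts, or 62.1, 74.7, 136 and 128 CPM. It differed 2.20-fold, was higher in tumours 9 and 10 than in tumours 1 and 5, and averaged 100.4 ± 37.4 CPM (SD, n = 4). Its 3 rows were alike, with means of 99.4 to 100.4 CPM.

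On the log2 CPM scale the SD over tumours was 2.83 for Ccnd2, 2.18 for Ccnd1 and 0.56 for Ccnd3. These stood at the 98.5th, 96.6th and 62.6th percentiles among the SDs of all 13129 expressed genes, whose median was 0.45. The Ccnd1 and Ccnd2 SDs were the only ones of at least 1 among the 8 expressed members, as were those of 16.6% of all expressed genes.

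**Figure D1:**
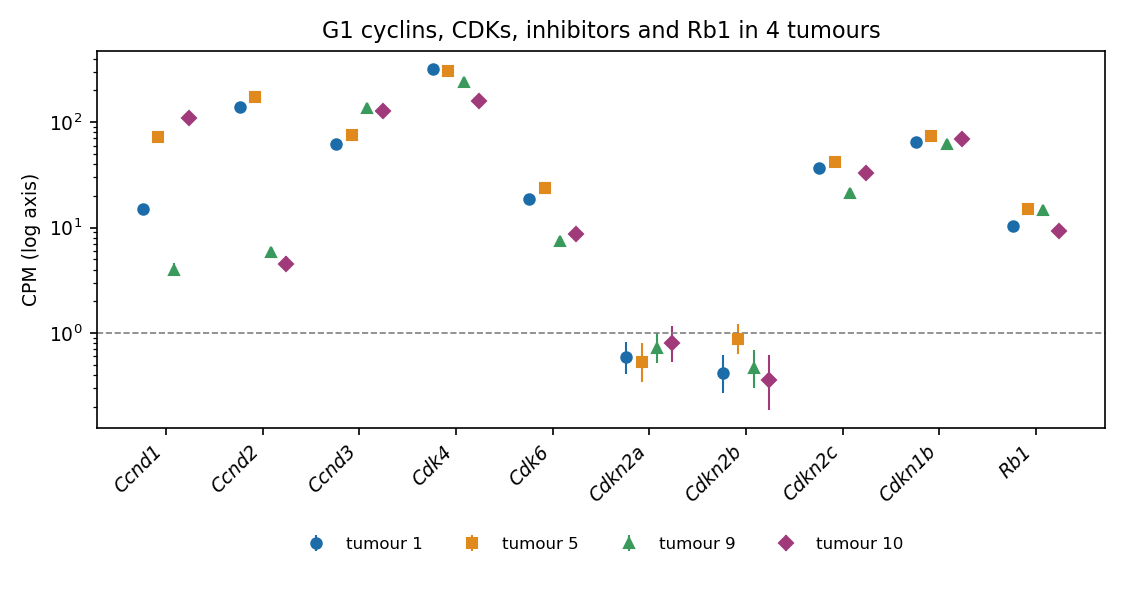
Level of each of the 10 genes in each tumour, in CPM on a log axis, with 1 point per tumour, a bar for its 95% exact Poisson interval and a dashed line at 1 CPM. Ccnd1 and Ccnd2 spread over 27.4-fold and 38.1-fold, while the Cdkn1b points lie within 1.17-fold of each other.

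Counts of different genes can be compared only per length. Divided by the length of the counted row, the 3 D-type cyclins together came to 57.1, 84.3, 66.5 and 90.3 CPM per kilobase in tumours 1, 5, 9 and 10 (mean 74.5 ± 15.4, SD, n = 4), a 1.58-fold range. The sum ranged less than Ccnd1 or Ccnd2 did on their own. A sum cannot range more widely than its widest part, and Ccnd3, a large part of it, differed 2.2-fold. Whether the cyclins offset each other was not tested. Its make-up changed from tumour to tumour. Ccnd3 made up 51.3%, 41.8%, 96.9% and 67.1% of the sum and was the leading D-type cyclin transcript in all 4 tumours. Ccnd2 made up 41.8% and 35.7% in tumours 1 and 5 and 1.52% and 0.873% in tumours 9 and 10. Ccnd1 made up 6.88%, 22.5%, 1.59% and 32.0%. Tumour 9 therefore carried nearly only Ccnd3 RNA, tumour 10 Ccnd3 with Ccnd1, tumour 1 Ccnd3 with Ccnd2, and tumour 5 all 3 genes. The leading place of Ccnd3 depends on the division by length: in plain CPM, Ccnd2 led in tumours 1 and 5, with 64.1% and 54.2% of the sum, and Ccnd3 in tumours 9 and 10, with 93.3% and 52.9%. The plain sums were 214.8, 320.1, 146.2 and 242.6 CPM, a 2.19-fold range.

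**Figure D2:**
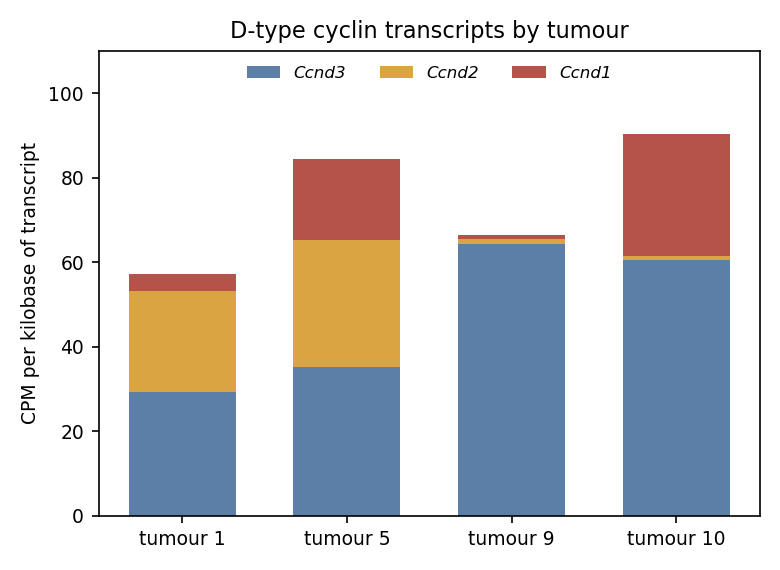
Summed level of Ccnd1, Ccnd2 and Ccnd3 in each tumour, in CPM per kilobase of the counted row, with 1 coloured segment per gene. The bars run from 57.1 to 90.3, and the Ccnd2 segment nearly disappears in tumours 9 and 10.

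Marker levels of other cells also differed between tumours, and not all in the same order as a cyclin. Cholangiocyte and progenitor markers, of which 6 of 8 were expressed, summed to 52.6 and 98.0 CPM in tumours 1 and 5 and to 16.5 and 14.6 CPM in tumours 9 and 10, the same division of tumours as for Ccnd2. Stellate cell and fibroblast markers, all 10 expressed, summed to 435.8, 314.2, 527.1 and 122.9 CPM, and their lowest tumour was 10. The neutrophil markers were highest in tumour 9, where Ccnd1 was lowest and Ccnd3 highest. The part of these cells in the cyclin levels was not tested. Exons of other genes overlap the cyclin genes on the opposite strand, and whether counting used strand is not given in the sources used here. Oraov1, which shares 1100 exon bases with Ccnd1, stood at 8.32, 5.60, 8.32 and 10.1 CPM in tumours 1, 5, 9 and 10, and Bysl, which shares 359 exon bases with Ccnd3, at 74.3, 81.2, 83.2 and 103.4 CPM. The antisense gene Gm43126 shares 372 exon bases with Ccnd2, and its level is not given here. Reads in the shared bases cannot be told apart.

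The genes closest to Ccnd2 in pattern were Fam64a, Fam169a, Slc1a4, Prlr and Ccdc64. Likeness was the Euclidean distance between centred log2 CPM values over the 4 tumours, so it rests on 4 points, and the distances were 0.709 to 0.793. Fam64a, for instance, stood at 11.8, 16.9, 0.931 and 0.446 CPM and Fam169a at 45.1, 45.4, 3.07 and 1.67 CPM in tumours 1, 5, 9 and 10. Prlr, the prolactin receptor, stood at 3.67 and 4.18 CPM in tumours 1 and 5 and below the level of 3 counts in tumours 9 and 10. Among the members, Cdk6 came nearest, at a distance of 3.55 and rank 412 of 13128 genes.

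Cdk4 was the leading kinase transcript in every tumour. Cdk4 (NM_009870, chr10:127063534-127067920, plus strand) had 18437, 12985, 12928 and 5391 counts, or 322, 303, 241 and 160.3 CPM, in tumours 1, 5, 9 and 10. Tumour 10 was lowest and tumour 1 highest, 2.01-fold apart, around a mean of 257 ± 73.0 CPM (SD, n = 4). Cdk6, which is known mainly from blood cells (NM_009873, chr5:3341485-3531008, plus strand), had 1060, 1015, 404 and 293 counts, or 18.5, 23.7, 7.52 and 8.71 CPM. As with Ccnd2, tumours 1 and 5 were higher than tumours 9 and 10, here by less, with 3.15-fold between the extremes and a mean of 14.6 ± 7.81 CPM (SD, n = 4); the lowest tumour is 9 after TMM and 10 with total counts alone.

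Per kilobase, Cdk4 and Cdk6 together came to 246.8, 234.8, 181.8 and 122.6 CPM in tumours 1, 5, 9 and 10, and Cdk4 made up 97.0%, 95.9%, 98.3% and 97.1% of that. Cdk4 stood 23.5-fold to 58.7-fold above Cdk6. The counted Cdk6 row is 2470 bases long, against 11525 bases for the GENCODE transcript at this gene, so its level covers part of the transcript and its level per kilobase depends on where reads fall. The kinases exceeded the D-type cyclins 4.32-fold in tumour 1, 2.79-fold in tumour 5, 2.74-fold in tumour 9 and 1.36-fold in tumour 10. That direction held in tumour 10 for the counted rows only. The counted Cdk4 row is 1346 bases long against 2053 in GENCODE, and per kilobase of the GENCODE transcripts the ratio was 2.87, 1.83, 1.77 and 0.868 in tumours 1, 5, 9 and 10. In plain CPM it was 1.59, 1.02, 1.70 and 0.697, so in each of the 3 ways tumour 10 had the lowest ratio of kinase to cyclin RNA. Tspan31 shares 641 exon bases with Cdk4 on the opposite strand and stood at 96.2, 93.4, 142.5 and 117.6 CPM, with its highest tumour 9, whereas Cdk4 was highest in tumour 1. The antisense gene Gm17590 shares 110 exon bases with Cdk6, and its level is not given here.

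Of the 3 INK4 members, Cdkn2c was the one with a mean above 1 CPM. Cdkn2c (NM_001301368, chr4:109660876-109667189, minus strand) had 2087, 1794, 1148 and 1112 counts, or 36.5, 41.9, 21.4 and 33.1 CPM, in tumours 1, 5, 9 and 10. It was highest in tumour 5 and lowest in tumour 9, 1.96-fold apart, with a mean of 33.2 ± 8.68 CPM (SD, n = 4). Per kilobase it made up 95%, 94.4%, 90.4% and 93.5% of the summed Cdkn2a, Cdkn2b and Cdkn2c level.

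The order of the tumours for Cdkn2c changed with the row. The shorter Cdkn2c row, NM_007671, had 1129, 959, 750 and 815 counts, or 19.7, 22.4, 14.0 and 24.2 CPM, and was highest in tumour 10 (mean 20.1 ± 4.48 CPM, SD, n = 4). The longer row is 2038 bases long in the files and the shorter 1106. In GENCODE they share 891 exon bases, and the longer, at 2471 bases, has a first exon of its own of 1580 bases (chr4:109665610-109667189). The RefSeq start of the longer row, at 109666756, lies within this exon, so the counted row need not cover all of it. The count of the longer row exceeded that of the shorter by 16.7, 19.5, 7.41 and 8.83 CPM in tumours 1, 5, 9 and 10. This excess was higher in tumours 1 and 5 than in tumours 9 and 10. Per kilobase, the shorter row stood at 0.997, 0.985, 1.20 and 1.35 times the longer one. Longer transcripts were lower in tumour 10 over all genes, and its part in this row difference was not tested.

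Cdkn2a was detected at a low level in every tumour, without a detectable difference between them. The row with more counts, NM_009877, is the ARF transcript and had 34, 23, 39 and 27 counts in tumours 1, 5, 9 and 10. These gave 0.594 CPM (95% exact Poisson interval 0.411 to 0.830), 0.537 CPM (0.340 to 0.806), 0.726 CPM (0.516 to 0.992) and 0.803 CPM (0.529 to 1.17), with intervals for counting error only. All 4 intervals overlapped, and with no filter on low counts the Poisson test over the tumours gave an adjusted p = 0.459, so no difference was detectable at this depth. The mean was 0.665 ± 0.121 CPM (SD, n = 4).

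The INK4a row, NM_001040654, had 33, 24, 38 and 25 counts, or 0.577, 0.560, 0.707 and 0.743 CPM (mean 0.647 ± 0.0920, SD, n = 4). The Cdkn2a rows thus differed by 1, -1, 1 and 2 counts and summed to 123 and 120 over the tumours. In GENCODE the gene spans chr4:89274471-89294653 on the minus strand. The ARF transcript begins with an exon of 320 bases of its own (chr4:89294334-89294653), and the INK4a transcript with one of 207 bases (chr4:89281986-89282192). Exon 2, of 341 bases (chr4:89276645-89276985), which they read in different frames, and 234 bases of exon 3 are common to both. Since 575 of 895 and of 852 transcript bases are shared, most reads could have been counted on both rows, and the near-equal counts cannot be divided between p19ARF and p16INK4a.

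Cdkn2b, next to Cdkn2a on chromosome 4 (NM_007670, chr4:89306299-89311039, minus strand), had 24, 38, 25 and 12 counts, or 0.419, 0.887, 0.465 and 0.357 CPM. It was highest in tumour 5, 2.49-fold above tumour 10, with a mean of 0.532 ± 0.241 CPM (SD, n = 4). With no filter on low counts, its spread passed the Poisson test (adjusted p = 0.00375). Both genes of this locus were therefore detected in all 4 tumours, at levels below 1 CPM on average.

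**Figure D3:**
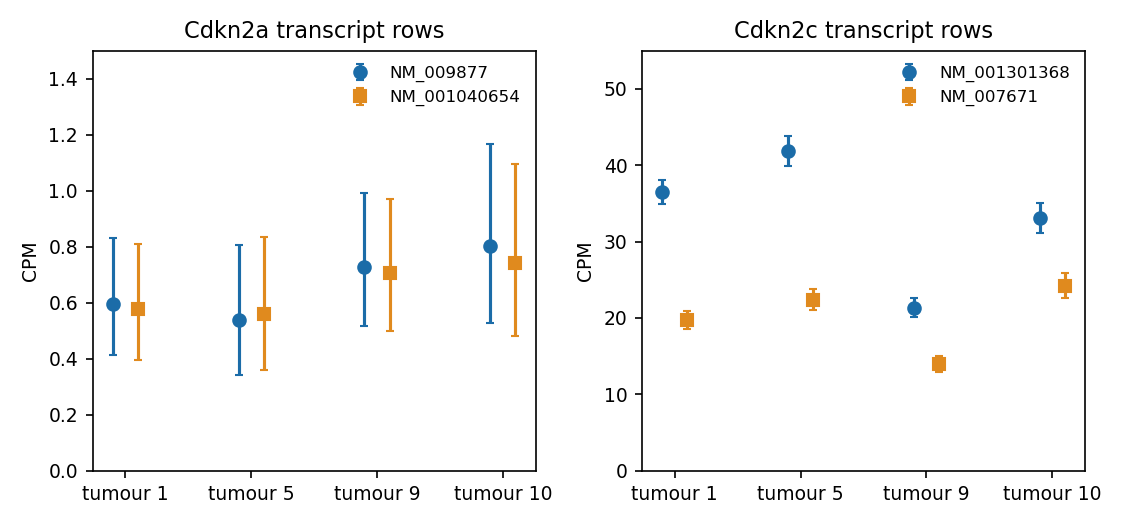
Level of the separate transcript rows of Cdkn2a and Cdkn2c in each tumour, in CPM, with bars for 95% exact Poisson intervals. The Cdkn2a rows differ by at most 2 counts in any tumour, whereas the longer Cdkn2c row is above the shorter by 7.41 to 19.5 CPM.

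Cdkn1b was the steadiest member. Cdkn1b (NM_009875, chr6:134920401-134925513, plus strand) had 3685, 3129, 3364 and 2318 counts, or 64.4, 73.1, 62.6 and 68.9 CPM, in tumours 1, 5, 9 and 10 (mean 67.2 ± 4.70 CPM, SD, n = 4). The tumours lay within 1.17-fold of each other, and its SD of 0.10 on the log2 CPM scale was at the 2.38th percentile of expressed genes. With total counts in place of TMM, tumour 10 became its lowest tumour, at 55.3 CPM against 68.8 to 75.3 CPM in the others, a 1.36-fold range. The D-type cyclins together stood 2.13-fold, 2.77-fold, 2.55-fold and 3.15-fold above Cdkn1b per kilobase in tumours 1, 5, 9 and 10.

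Rb1, the substrate of these kinases (NM_009029, chr14:73183673-73325822, minus strand), had 597, 640, 780 and 314 counts, or 10.4, 14.9, 14.5 and 9.34 CPM (mean 12.3 ± 2.84 CPM, SD, n = 4). Tumours 5 and 9 were higher than tumours 1 and 10, by at most 1.60-fold, and with total counts in place of TMM the highest tumour was 9 in place of 5. Rcbtb2, which shares 105 exon bases with Rb1 on the opposite strand, stood at 31.9, 34.4, 43.4 and 56.6 CPM.

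By mean level per kilobase the members fell in the order Cdk4 (191 ± 54.3 CPM per kilobase), Ccnd3 (47.4 ± 17.7), Cdkn1b (28.0 ± 1.95), Cdkn2c (16.3 ± 4.26), Ccnd2 (13.9 ± 15.3), Ccnd1 (13.2 ± 13.1), Cdk6 (5.92 ± 3.16), Rb1 (2.66 ± 0.614), Cdkn2a (0.716 ± 0.131) and Cdkn2b (0.382 ± 0.173), each with its SD over 4 tumours. Cdk4 lay above Ccnd3 in every tumour, and its level per kilobase was between the 92.6th and the 97.8th percentile of expressed genes. Cdkn2c, Ccnd2 and Ccnd1 did not differ beyond their spread, because the cyclins ranged from 0.788 to 30.1 and from 1.05 to 28.9 CPM per kilobase and changed places between tumours. Ccnd3 and Cdkn1b were 47.4 and 28.0 on average, but in tumours 1 and 5 they were close to each other (29.3 against 26.8 and 35.3 against 30.4). Cdkn2a and Cdkn2b were below every other member's mean.

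All 8 expressed members varied between tumours beyond counting noise in the Poisson heterogeneity test with Benjamini-Hochberg adjustment. At these depths so did 98.7% of all expressed genes, so the count says little about the members. Allowing for a technical variation of 5% between libraries, 7 of 8 passed against 94.1% of genes, and the one lost was Cdkn1b (adjusted p = 0.152). Allowing for 20%, Ccnd1, Ccnd2, Ccnd3 and Cdk6 passed, 4 of 8 against 39.4% of genes. With no filter on low counts, 9 of 10 passed against 82.4% of genes, all but Cdkn2a.

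Next, edgeR's quasi-likelihood test (two-sided) set each single tumour against the rest, with p adjusted over all genes and the 4 tumours. This compares 1 library with the others, assuming that all vary alike, and not conditions. Simulated data gave every gene 1 common dispersion (spread between libraries), 0.3016 as estimated over these tumours. There the test recovered 0% of genes changed 4-fold in tumour 10 and 41% of those changed 16-fold. With a dispersion of 0.05 it recovered 89.9% and 100%, so recovery rests on the spread that a gene has. An absence of calls is therefore no sign that the tumours are alike. No member passed in any tumour, and the share of all expressed genes that passed was 0.0% in each. The smallest adjusted p was 0.589 among the members and 0.0874 among all genes. At an unadjusted p under 0.05, which 0.716%, 0.922%, 5.65% and 22.1% of genes reached in tumours 1, 5, 9 and 10, 2 of 32 member tests passed. Ccnd1 in tumour 9 differed by -4.03 on the log2 scale from the other 3 (SE 1.41, edgeR adjusted p = 0.633), and Cdk4 in tumour 10 by -0.85 (SE 0.29, edgeR adjusted p = 0.589). Lower genes with an unadjusted p under 0.05 made up 8.26% of all expressed genes in tumour 10, where Cdk4 was 1 of 8 members.

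Calls of single members rested on the tool and on which tumours were compared. DESeq2's Wald test called Ccnd1 lower in tumour 9 (adjusted p = 0.00939) and no other member, where it called 0.221%, 0.343%, 2.42% and 10.3% of genes in tumours 1, 5, 9 and 10. With limma-voom no member passed in any tumour, nor did any gene (0.0%). For Ccnd2, low in a pair of tumours, the lone-tumour test sets 1 low library against a group that holds the other. Its difference was -4.17 in tumour 9 (SE 2.28, edgeR adjusted p = 0.929) and -4.54 in tumour 10 (SE 2.19, edgeR adjusted p = 0.863). Without tumour 9, Ccnd2 was called lower in tumour 10 by edgeR (-5.13, adjusted p = 0.0188, with 3.16% of genes called), and without tumour 10 it was called lower in tumour 9 (-4.74, adjusted p = 0.0285, with 0.212% of genes called).

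The wider pathway was described from 7 lists with 77 genes, of which 74 were expressed. None of the 296 tests of a listed gene in 1 tumour passed edgeR's adjusted threshold. At an unadjusted p under 0.05, 14 of the 74 were lower and 2 higher in tumour 10, 1 was higher and 1 lower in tumour 9, and none passed in tumours 1 or 5. Over all expressed genes, 8.26% were lower and 13.9% higher in tumour 10 by the same threshold. In tumours 1, 5 and 9, 0.716%, 0.922% and 5.65% of them passed in either direction.

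The other CDK inhibitors differed more than Cdkn1b did. Cdkn1a, the p53 target p21, stood at 140.3, 155.8, 78.0 and 195.7 CPM in tumours 1, 5, 9 and 10, and Cdkn1c, the imprinted inhibitor p57, at 107.8, 121.9, 236.8 and 50.6 CPM. Cdkn1a was lowest in tumour 9, where Cdkn1c was highest, and the order was the other way round in tumour 10. Cdkn2d, which encodes the fourth INK4 protein p19INK4d, stood at 5.91, 4.76, 9.08 and 6.01 CPM.

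Among the pocket proteins and E2F factors, 7 of 12 were lowest in tumour 10, against 32.4% of all expressed genes, and their median deviation from the 4-tumour mean there was -0.54 on the log2 CPM scale, against 0.02 over all genes. Rbl1 (p107) stood at 18.3, 23.4, 20.2 and 12.7 CPM in tumours 1, 5, 9 and 10, and Rbl2 (p130) at 24.8, 30.4, 38.6 and 39.5 CPM. Of the activating factors, E2f1 stood at 35.0, 34.8, 32.4 and 18.4 CPM, E2f2 at 8.74, 21.7, 28.4 and 4.43 CPM and E2f3 at 42.5, 27.9, 28.3 and 19.1 CPM. Each of these 3 was lowest in tumour 10. Tfdp1, the partner that E2F factors need to bind DNA, stood at 290.9, 240.2, 187.4 and 81.5 CPM, whereas its relative Tfdp2 was highest in tumour 9 (38.2, 48.7, 91.0 and 55.8 CPM). The repressive factors did not share 1 order: E2f4 stood at 84.7, 73.3, 58.1 and 80.3 CPM, E2f5 at 38.3, 37.2, 18.6 and 13.4 CPM and E2f6 at 17.1, 15.2, 11.6 and 23.0 CPM. E2f7, at 11.4, 8.92, 2.83 and 4.16 CPM, and E2f8, at 43.8, 57.6, 33.4 and 22.8 CPM, were lower in tumours 9 and 10 than in tumours 1 and 5.

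Of the 10 genes of the G1/S kinase and its activators, 5 were lowest and 3 highest in tumour 10, with a median deviation of -0.31 there. Of all expressed genes, 32.4% were lowest and 35.8% highest in that tumour. The cyclin E genes were lower in tumours 9 and 10 than in tumours 1 and 5. Ccne1 stood at 53.7, 70.2, 37.8 and 33.3 CPM and Ccne2 at 48.7, 34.0, 24.2 and 8.06 CPM in tumours 1, 5, 9 and 10, while their kinase Cdk2 stayed between 34.2 and 43.5 CPM. Skp2, which marks p27 for breakdown together with Cks1b, stood at 59.5, 47.8, 49.2 and 10.5 CPM. Its difference in tumour 10 was -2.32 on the log2 scale (SE 0.32, edgeR adjusted p = 0.169), while the Cdkn1b transcript stood at 68.9 CPM there. Cdc25a, the phosphatase that activates CDK2, stood at 96.8, 113.2, 80.0 and 48.1 CPM, and Cks1b at 70.2, 71.8, 42.0 and 46.5 CPM. The subunits of the CDK-activating kinase, Cdk7 (28.9 to 45.6 CPM), Ccnh (34.3 to 41.5 CPM) and Mnat1 (23.1 to 41.0 CPM), and the ligase gene Fbxw7 (10.8 to 17.8 CPM) did not share a lowest tumour.

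E2F target genes of S phase had a median SD of 0.28 on the log2 CPM scale. Of the 16, 11 were highest in tumour 5, against 21.2% of all expressed genes, and 10 were lowest in tumour 10, against 32.4%. Their median deviations were 0.01, 0.25, -0.10 and -0.22 in tumours 1, 5, 9 and 10. The genes named here did not share 1 order. Pcna, the sliding clamp of DNA polymerase, was highest in tumour 10 (193.7, 235.2, 159.7 and 283.5 CPM), and Mcm6, of the replicative helicase, was lowest in tumour 5 (184.6, 157.6, 249 and 241.6 CPM). Ccna2 stood at 207.1, 234, 161.4 and 171.7 CPM and Cdc6, a replication licensing factor, at 27.0, 21.0, 19.8 and 6.36 CPM. Of the 12 mitosis and proliferation genes, 11 were lowest in tumour 10, against 32.4% of all expressed genes, with a median deviation of -0.58 there. Mki67 stood at 298.7, 325.7, 285 and 134.9 CPM, Top2a at 327.7, 284.5, 208.8 and 92.7 CPM and Cdc20 at 189.8, 175.1, 132 and 96.7 CPM. Tumour 10 thus combined the highest Ccnd1 level with the lowest levels of Cdk4, E2f1 and most mitosis genes. The median deviation of the 8 expressed members was 0.06, 0.34, -0.35 and -0.17, and 5 of the 8 were highest in tumour 5, against 21.2% of all genes. That count depends on scaling and row. Rb1 was highest in tumour 9 with total counts in place of TMM, the shorter Cdkn2c row was highest in tumour 10, and Cdkn1b differed only 1.17-fold.

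**Figure D4:**
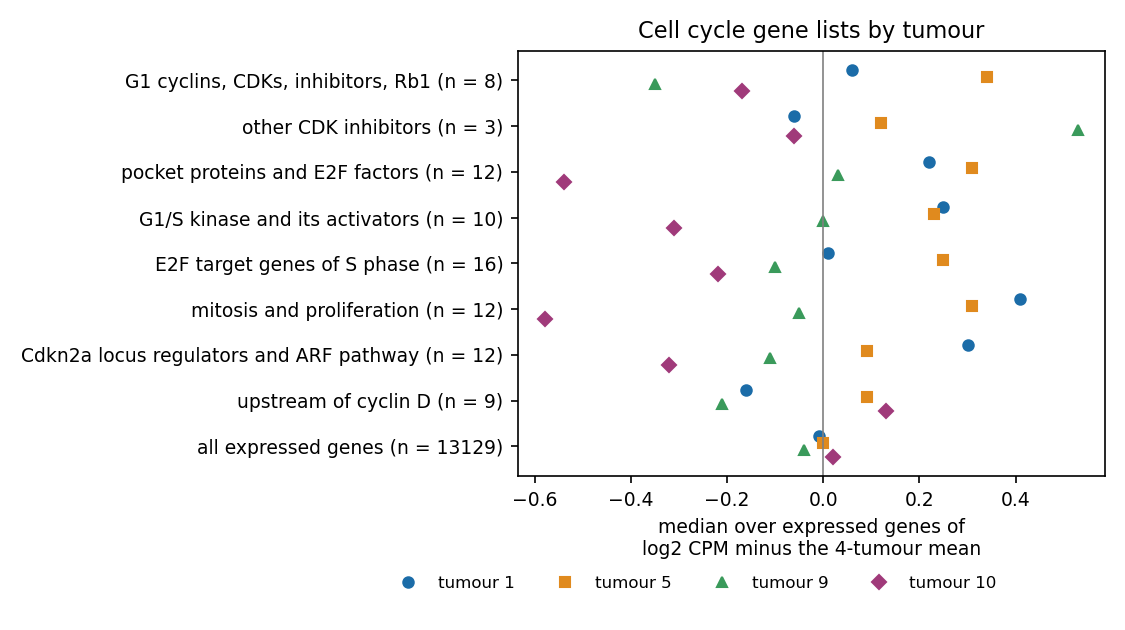
Median over the expressed genes of each list of log2 CPM minus the gene's 4-tumour mean, with 1 point per tumour and the number of expressed genes in brackets. The mitosis list runs from -0.58 in tumour 10 to 0.41 in tumour 1, while all expressed genes lie between -0.04 and 0.02.

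Of the genes that regulate the Cdkn2a locus or act with p19ARF, 6 of 12 were lowest in tumour 10, against 32.4% of all genes. Suz12, a Polycomb subunit, stood at 166.1, 171.7, 156.5 and 95 CPM and Ets2, an activator of INK4a, at 121.4, 214.4, 131.8 and 104.2 CPM in tumours 1, 5, 9 and 10. Npm1, the nucleolar partner of p19ARF, lay between 1756 and 2021 CPM. Tbx3, a repressor of the locus, stood at 4.39, 4.39, 0.558 and 0.862 CPM, high in the same tumours as Ccnd2.

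Upstream of cyclin D, Ctnnb1 (β-catenin) stood at 448.5, 474.7, 335.7 and 315.3 CPM. Of the 9 expressed genes of this list, 2 were higher in tumour 10 at an unadjusted p under 0.05, against 13.9% of all genes. Gsk3b, a kinase that marks cyclin D1 protein for export and breakdown, stood at 63.4, 79.0, 52.7 and 114.4 CPM, and Fbxo31, a ubiquitin ligase subunit that binds cyclin D1, at 98.0, 84.6, 86.9 and 244.4 CPM. Fbxo31 was 1.44 higher on the log2 scale in tumour 10 (SE 0.22, edgeR adjusted p = 0.194), the tumour with the most Ccnd1 RNA. Protein levels were not measured. Tumour 10 also had the highest summed hepatocyte markers, the lowest stellate cell and fibroblast markers and the lower levels of long transcripts given above, and their part in its low cell cycle levels was not tested.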

How the data were processed

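Poly-A RNA of the 4 tumours was made into TruSeq libraries, per the labels' protocols. The submitters' processing notes name FastQC 0.11.8 and GRCm38. Which aligner, counting program, strand setting and annotation were used is not given in the sources used here. Per transcript row, 33984 in all, the authors deposited whole read counts. The deposited FPKM values, so named per the file headers, are the counts over the file's count total and over a length that came out whole within 0.01 bases in 100.0% of detected rows. They were used to recover that length. The deposited TPM values, so named per the file headers, sum to 1000000 in each library and were not used further. Row totals were 60157029 to 77243091 counts, above the gene totals, which hold 1 row per symbol. Whether a read was counted on more than 1 row of a gene is not given. FPKM and TPM would hold any such repeats.

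CPM used TMM-scaled gene totals, and log2 CPM a prior count of 2. Without TMM the median gene would shift by 0.14, 0.04, 0.13 and -0.32 (log2) in tumours 1, 5, 9 and 10, and changes are given relative to TMM. Tests used R 4.3.3, edgeR 4.0.16, limma 3.58.1 and DESeq2 1.42.0, a threshold of 0.05 and Benjamini-Hochberg adjustment, after a run on simulated data. Intervals and the floor of 3 counts cover counting error only. Gene coordinates are from GENCODE M21 on GRCm38.

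The members and lists were chosen with earlier results of these data known. The rule for named genes took every member, each Cdkn2a row, every gene of the CDK inhibitor, E2F and G1/S kinase lists, and of each further list the 3 expressed genes highest in mean CPM plus the 1 of largest SD. It also took the 5 genes nearest to the expressed member with the largest SD. Alternatives were other scalings, filters, tools, prior counts, rows and each tumour left out. The Cdkn2c rows were added after the tables were seen, as was the summed D-type cyclin level.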

Additional observations from a re-analysis of the deposited data

Results flagged for a closer look

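In groups of 4 tumours, a value was singled out when its gap to the nearest tumour took up more of the group's range than Dixon's 95% critical value allows. Of 53 genes and quantities tested, 2 did so, and chance singles out about 1 in 20. The lowest E2f1 level, 18.35 CPM in tumour 10, lay apart from the other tumours by 0.844 of the range. The highest Fbxo31 level, 244.4 CPM in tumour 10, lay apart by 0.916 of the range. No member was singled out.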

How the results depend on the processing

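The number of members beyond counting noise was 8 of the 8 expressed, against 98.7% of all expressed genes. It fell to 4 with a technical variation of 20%, against 39.4% of genes. The count of members called in 1 tumour against the others was 0 in each tumour. With DESeq2's Wald test it was 1 in tumour 9 (Ccnd1). Leaving out each replicate in turn it ranged from 0 to 1 in tumour 9 (1 without tumour 10) and from 0 to 1 in tumour 10 (1 without tumour 9), the called member being Ccnd2 both times. It was 0 under the other scalings, with sums over rows, without a filter, with limma-voom and with adjustment within each tumour. The range of the summed D-type cyclin level was 1.58-fold, 2.19-fold with no division by length, 1.83-fold with sums over rows and 1.36-fold to 1.58-fold without each tumour, alternatives chosen after seeing the data. The median of the members' mean log2 CPM was 4.77 and ranged from 4.08 to 5.35. The ratio of kinase to D-type cyclin RNA in tumour 10 was 1.36 and fell below 1, to 0.868 per kilobase of GENCODE transcripts and 0.697 with no division by length, both also chosen after seeing the data. These 2 values changed direction. Of the other values recomputed, 95 stayed within the spread between tumours or on the same side of the threshold, and 8 moved by more than that spread. DESeq2 size factors kept the order of the tumours for every member. No paired analysis was possible because the samples form 1 group. Depth limits Cdkn2a and Cdkn2b, with 12 to 39 counts a library.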
